A study of Mus musculus with 6 samples.

Results

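The 42 genes described here are the transcription factor NRF2, its regulators, and known or related target genes of glutathione, thioredoxin, detoxification and NADPH supply. They were taken by symbol from a fixed list, and 39 of the 42 had a probe set named for them alone and were tested, out of 19847 genes tested in all. Prdx5, Prdx6 and G6pdx are not analysed here. RNA came from mouse leukemia cells of a line named MLL-AF10, after the fusion of the histone methyltransferase MLL with AF10, a known driver of acute leukemia. One group of 3 samples had been treated with 0.5 µM of an IKK inhibitor, for which the sources used here give neither a name nor a duration of treatment, and the other group of 3 had received vehicle. IKK kinases phosphorylate the inhibitors that hold NF-kB factors in the cytoplasm. Both groups grew in RPMI medium with fetal serum and medium conditioned by WEHI cells, so all samples were exposed to the growth factors of that conditioned medium. All samples are of a single line, and the labels do not say whether a group's 3 samples grew apart. The p-values therefore take in the spread among these 6 samples alone, and part of it may be technical.

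NRF2, encoded by Nfe2l2, is held in check by KEAP1, which presents it to a cullin ubiquitin ligase for degradation. Oxidants and electrophiles modify cysteines of KEAP1, NRF2 then accumulates, pairs with a small MAF protein and binds antioxidant response elements near its target genes. The targets include enzymes that make glutathione, reduce thioredoxin, conjugate or export reactive compounds and supply NADPH, and in myeloid cells they limit damage from the oxidants these cells produce.

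The core of the antioxidant response element, TGACNNNGC, was searched on both strands of windows of 300 bases, from 250 before to 50 after a transcript start, taken from RefSeq on mouse build GRCm38.p6. Of the 39 genes tested 35 matched a window by symbol, and Abcc1, Gclc, Gsr and Gsta4 are named only. The core lay in 12 of the 46 windows of these genes (26.1%), against 4071 of 32851 windows over all genes (12.4%). It was present for 6 of the 15 genes with a window that were called higher with the inhibitor (40.0%), and for 5 of the 19 that were not called (26.3%), among them Sod1 and Me1, where 14.0% of the 27025 genes with a window hold it. Counted by windows, the core lay in 33.3% of those of genes called higher and 22.2% of those of genes not called. The AP-1 core, TGANTCA, counted anywhere in a window whether or not it overlapped TGACNNNGC, lay in 8 of the 46 windows (17.4%) and in 2565 of all 32851 (7.81%). A match is a description of letters in the window and not a measured binding site. The genes were listed as known or related targets of NRF2, so the comparison with all genes is not independent of that choice. None of these shares was tested. The 6 windows below are those of genes called higher that hold the core, printed 5′ to 3′ along the gene with the core in capitals, or its reverse complement where the match lies on the opposite strand, in order of the log2 fold change.
Gsta3 (chr1:21240335-21240634, plus strand): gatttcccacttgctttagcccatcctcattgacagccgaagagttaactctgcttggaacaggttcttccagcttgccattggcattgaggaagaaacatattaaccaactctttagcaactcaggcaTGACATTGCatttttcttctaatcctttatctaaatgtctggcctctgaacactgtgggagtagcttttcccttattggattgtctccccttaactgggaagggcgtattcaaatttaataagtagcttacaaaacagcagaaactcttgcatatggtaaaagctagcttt
Mgst1 (chr6:138140277-138140576, plus strand): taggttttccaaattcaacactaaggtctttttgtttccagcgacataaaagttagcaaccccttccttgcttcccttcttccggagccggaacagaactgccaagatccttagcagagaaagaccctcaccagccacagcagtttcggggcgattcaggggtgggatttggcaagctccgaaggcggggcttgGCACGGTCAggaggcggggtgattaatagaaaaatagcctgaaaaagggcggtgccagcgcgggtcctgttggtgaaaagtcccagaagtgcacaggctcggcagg
Srxn1 (chr2:152105274-152105573, plus strand): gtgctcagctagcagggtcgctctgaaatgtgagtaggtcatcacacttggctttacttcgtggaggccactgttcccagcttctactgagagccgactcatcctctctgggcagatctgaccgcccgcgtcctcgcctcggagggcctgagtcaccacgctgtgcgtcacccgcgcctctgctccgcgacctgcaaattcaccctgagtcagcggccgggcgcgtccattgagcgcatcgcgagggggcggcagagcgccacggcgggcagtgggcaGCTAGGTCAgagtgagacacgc
Prdx1 (chr4:116685349-116685648, plus strand): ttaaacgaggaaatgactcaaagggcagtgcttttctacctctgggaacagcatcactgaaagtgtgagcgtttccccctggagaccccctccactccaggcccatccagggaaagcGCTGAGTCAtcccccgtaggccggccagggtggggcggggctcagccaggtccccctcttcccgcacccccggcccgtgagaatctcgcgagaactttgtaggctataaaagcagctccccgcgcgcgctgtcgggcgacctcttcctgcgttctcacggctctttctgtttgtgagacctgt
Gclm (chr3:122245307-122245606, plus strand): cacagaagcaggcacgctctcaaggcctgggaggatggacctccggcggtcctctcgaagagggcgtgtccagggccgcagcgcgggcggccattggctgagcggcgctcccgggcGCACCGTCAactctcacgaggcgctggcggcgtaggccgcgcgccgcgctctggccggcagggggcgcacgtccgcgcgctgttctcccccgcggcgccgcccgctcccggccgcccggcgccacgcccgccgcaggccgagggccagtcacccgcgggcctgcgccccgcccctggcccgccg
Txnrd1 (chr10:82858956-82859255, plus strand): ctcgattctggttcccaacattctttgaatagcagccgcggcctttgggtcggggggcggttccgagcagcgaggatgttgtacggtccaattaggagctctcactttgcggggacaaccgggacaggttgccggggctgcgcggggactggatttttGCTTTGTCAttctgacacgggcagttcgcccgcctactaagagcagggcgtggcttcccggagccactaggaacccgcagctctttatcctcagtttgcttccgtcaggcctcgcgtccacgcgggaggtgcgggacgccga
In the Gsta3 window the core reads in the direction of the gene and ends 113 bases before the start, and in the other 5 it lies on the opposite strand. The match in Gclm ends 126 bases before the start, that in Prdx1 125, that in Txnrd1 84 and that in Mgst1 48, whereas that in Srxn1 lies after the start and ends at base 37 of the transcript. Only in Prdx1, of these 6, does the match overlap the AP-1 core.

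Across the 6 arrays, median intensities lay between 112 and 124, and correlations of log2 values were between 0.993 and 0.997 within groups and between 0.988 and 0.991 across them. Among markers of the labelled leukemia, Hoxa9 had intensities of 1751 to 1817 with the inhibitor and 1903 to 1989 with vehicle, and did not pass (adjusted p = 0.190). Meis1 had 1054 to 1152 with the inhibitor and 1052 to 1111 with vehicle, which overlap, and did not pass either. Of 11 monocyte and macrophage markers 9 were called higher and none lower, with a median log2 fold change of 0.76. Their summed intensity was 13444 to 14502 on the inhibitor arrays and 6432 to 6689 on the vehicle arrays. None of the 11 lay at or below the floor of 16 on all arrays, and Cd163 alone stayed under 100 on all 6. Of 8 neutrophil granule markers 3 were higher and 3 lower, and of 5 stem and progenitor markers 2 were lower. Over all genes tested, 7.1% were called higher and 6.75% lower. The neutrophil markers called lower had log2 fold changes of -2.62 (Mpo), -0.24 (Elane) and -0.28 (Prtn3). Those called higher had 0.74 (Ngp), 0.66 (Camp) and 0.31 (Lcn2). No marker of erythroid, T, B, mast or stromal cells was called. These marker levels moved with the changes described below, and their part in them was not tested. In bulk RNA, a change in the share of a cell type and a change in RNA per cell cannot be told apart.

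With the IKK inhibitor, at least 1 gene of every role in this antioxidant set rose, except among the glutathione peroxidases. For NADPH supply this was Taldo1 alone, which was called in only 1 of the 6 fits that left out 1 array. Of the 39 tested, 18 (46.2%) were called higher and 1 was called lower at a Benjamini-Hochberg adjusted p under 0.05 by limma, where 7.1% of all genes tested were called higher and 6.75% lower. The highest fold changes were those of Gsta3, Mgst1, Srxn1, Osgin1 and Prdx1. All 3 inhibitor arrays lay above all 3 vehicle arrays for 26 genes and below them for 4, against 15.7% and 17.2% of all genes. The median log2 fold change of the 39 genes was 0.16, where that of all genes tested was 0.01. A called rise of at least 0.5 on the log2 scale was found for 9 of the 39, and for 2.27% of all genes. The shares over all genes include many dim genes. In a fit of the 9924 genes at or above the median of mean intensity, 1731 were called higher and 2207 lower. Of the 33 listed genes in that fit, 20 were called higher and 1 lower. Counts of calls and the median are given as a description of a chosen list, with no test of the list as a whole. Relative to the mean of the vehicle arrays, the median log2 difference of the 39 genes was 0.19, 0.15 and 0.20 on inhibitor arrays 1, 2 and 3, and between -0.01 and 0.01 on the vehicle arrays. No inhibitor array set the shift alone. Of the 18 genes called higher, 14 were called whichever single array was left out.

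**Figure D1:**
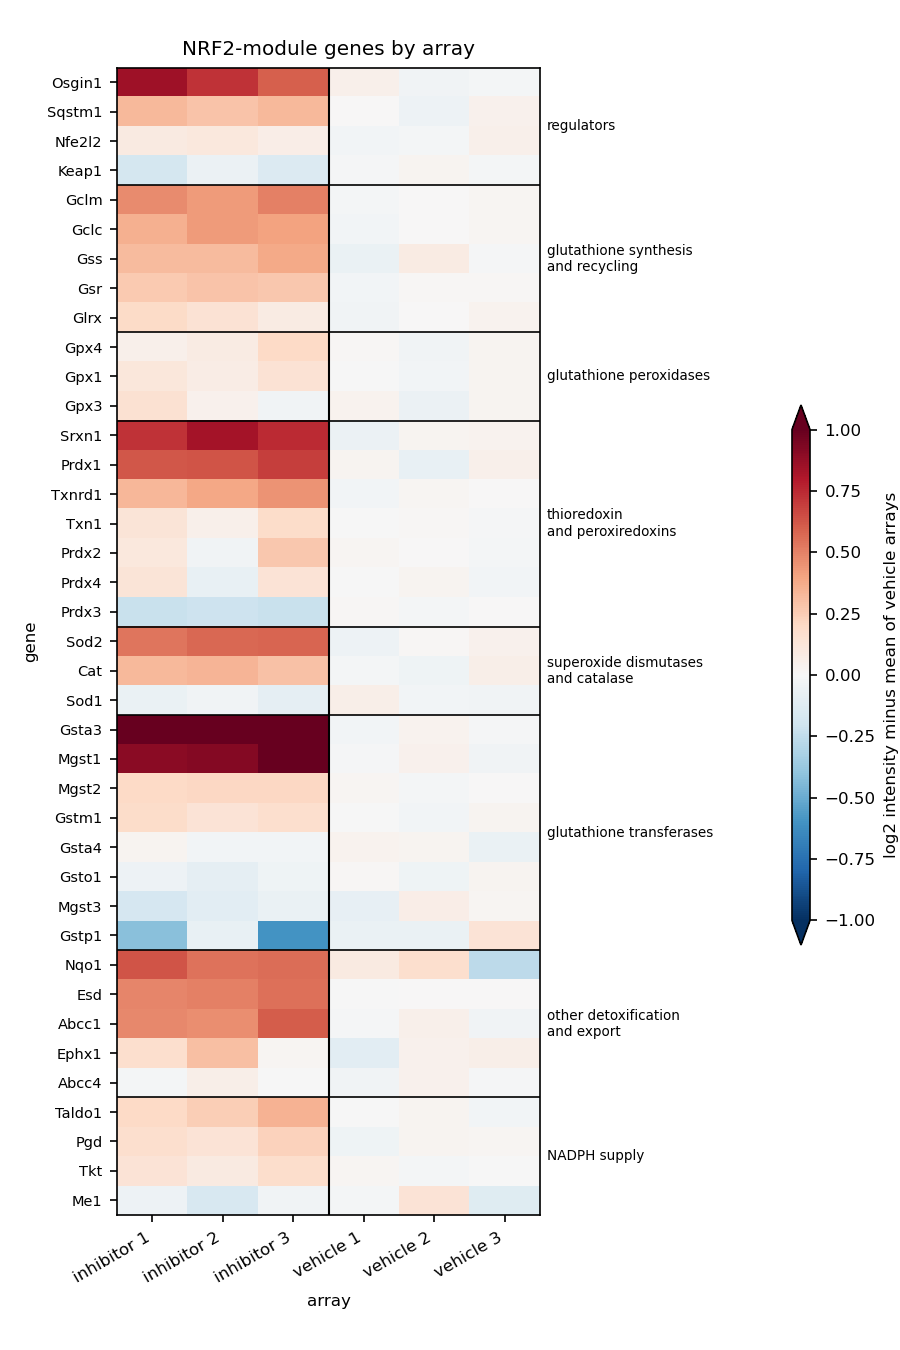
Heat map of the log2 intensity of each of the 39 genes on each array, minus the mean of the 3 vehicle arrays, with genes grouped by role and the colour scale ending at -1 and 1. The inhibitor arrays are red for most genes, with Gsta3 past the end of the scale on all 3. Prdx3, Keap1, Gstp1, Gsto1, Mgst3, Sod1 and Me1 lie below 0 on all 3.

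**Figure D2:**
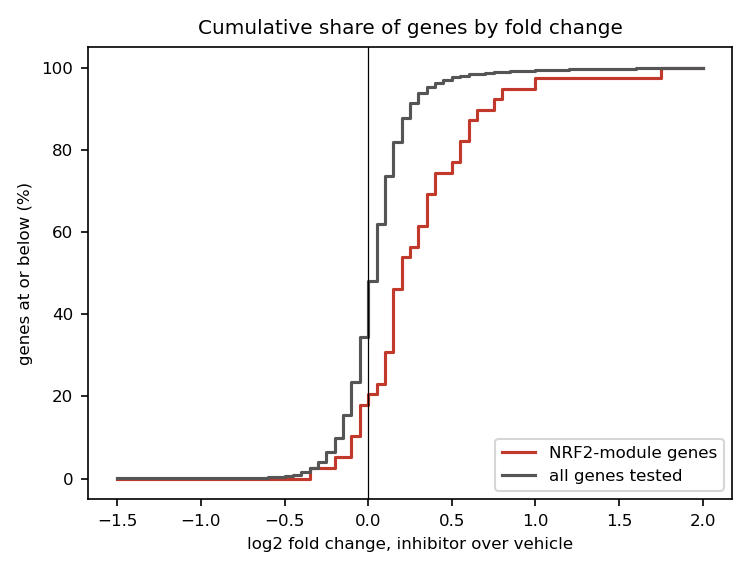
Cumulative share of genes (percent, vertical axis) by log2 fold change of inhibitor over vehicle (horizontal axis), for the 39 genes and for all 19847 genes tested. The curve of the 39 genes lies to the right of that of all genes over most of its length, with medians of 0.16 and 0.01.

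Among the 4 genes grouped here as regulators, Sqstm1 and Osgin1 rose, and neither Nfe2l2 nor Keap1 passed the test. A role of Osgin1 in regulating NRF2 was not tested. Nfe2l2, the gene of NRF2, had intensities of 2435, 2460.5 and 2391 with the inhibitor, against 2236, 2251 and 2362 with vehicle. The inhibitor arrays all lay above the vehicle arrays, but by little, and the log2 fold change of 0.09 (95% interval -0.03 to 0.20) did not pass (adjusted p = 0.301). Keap1, whose product targets NRF2 for degradation, had intensities of 459, 497 and 470.3 with the inhibitor, against 515, 527 and 512 with vehicle. All 3 inhibitor values were below the vehicle values, yet the log2 fold change of -0.12 (95% interval -0.25 to -0.0013) did not pass after adjustment (adjusted p = 0.180). Sqstm1, the autophagy receptor p62 that can bind KEAP1 away from NRF2, had intensities of 3713, 3609.7 and 3702 with the inhibitor, against 2971, 2857 and 3052 with vehicle. Its groups did not overlap, and it rose 1.24-fold (log2 fold change 0.31 ± 0.05, SE) with adjusted p = 0.00921. Osgin1, an oxidative stress-induced growth inhibitor gene, had intensities of 471, 433 and 396 with the inhibitor, against 271, 256 and 258 with vehicle. Here inhibitor array 1 was the highest and array 3 the lowest of the treated arrays, and all were well above vehicle: it rose 1.65-fold (log2 fold change 0.73 ± 0.07, SE) with adjusted p = 0.00156.

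Glutathione synthesis and recycling rose in 4 of 5 genes, the highest share among the groups of the set. Glutathione is made from glutamate, cysteine and glycine in a pair of steps, of which the first, by glutamate-cysteine ligase, limits the rate. The modifier subunit gene of this ligase, Gclm, had intensities of 3415, 3297 and 3489.7 with the inhibitor, against 2428, 2461 and 2490.1 with vehicle. Its catalytic subunit gene, Gclc, had intensities of 1069.5, 1122 and 1105 with the inhibitor, against 818, 838 and 846 with vehicle. Neither gene's groups overlapped, and the vehicle values of each were tightly spaced. Gclm rose 1.38-fold (log2 fold change 0.47 ± 0.05, SE) with adjusted p = 0.00169, and Gclc 1.32-fold (log2 fold change 0.40 ± 0.05, SE) with adjusted p = 0.00327. Gss, glutathione synthetase, which performs the other step, had intensities of 333, 333 and 347 with the inhibitor, against 255, 283 and 265 with vehicle. Vehicle array 2 was the highest vehicle value and still lay below all inhibitor values. Gss rose 1.26-fold (log2 fold change 0.34 ± 0.06, SE) with adjusted p = 0.0117, but adjusted p was 0.0534 without vehicle array 3. Gsr, the reductase that returns oxidised glutathione to its reduced form with NADPH, had intensities of 3955, 4011 and 3988 with the inhibitor, against 3235, 3336 and 3332 with vehicle. It rose 1.21-fold (log2 fold change 0.27 ± 0.05, SE) with adjusted p = 0.0109, and the call was lost after median centring of the arrays (adjusted p = 0.0987). Glrx, a glutaredoxin that uses glutathione to reduce protein disulfides, had intensities of 2321 to 2499 with the inhibitor and 2136 to 2251 with vehicle, a log2 fold change of 0.14 that did not pass (adjusted p = 0.141).

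None of the 3 glutathione peroxidases, which spend glutathione on peroxides, passed the test. The log2 fold change was 0.11 for Gpx1, the abundant cytosolic enzyme, 0.11 for Gpx4, which reduces lipid peroxides, and 0.05 for Gpx3, the secreted enzyme, with adjusted p = 0.207, 0.279 and 0.665. Inhibitor arrays were above vehicle arrays for Gpx1 and Gpx4 and overlapped with them for Gpx3. The 2 probe sets of Gpx4 had log2 fold changes of 0.11 and 0.13 in a fit of single probe sets. The 95% intervals of all 3 reached from below 0 to at most 0.25, so larger rises lie outside them.

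**Figure D3:**
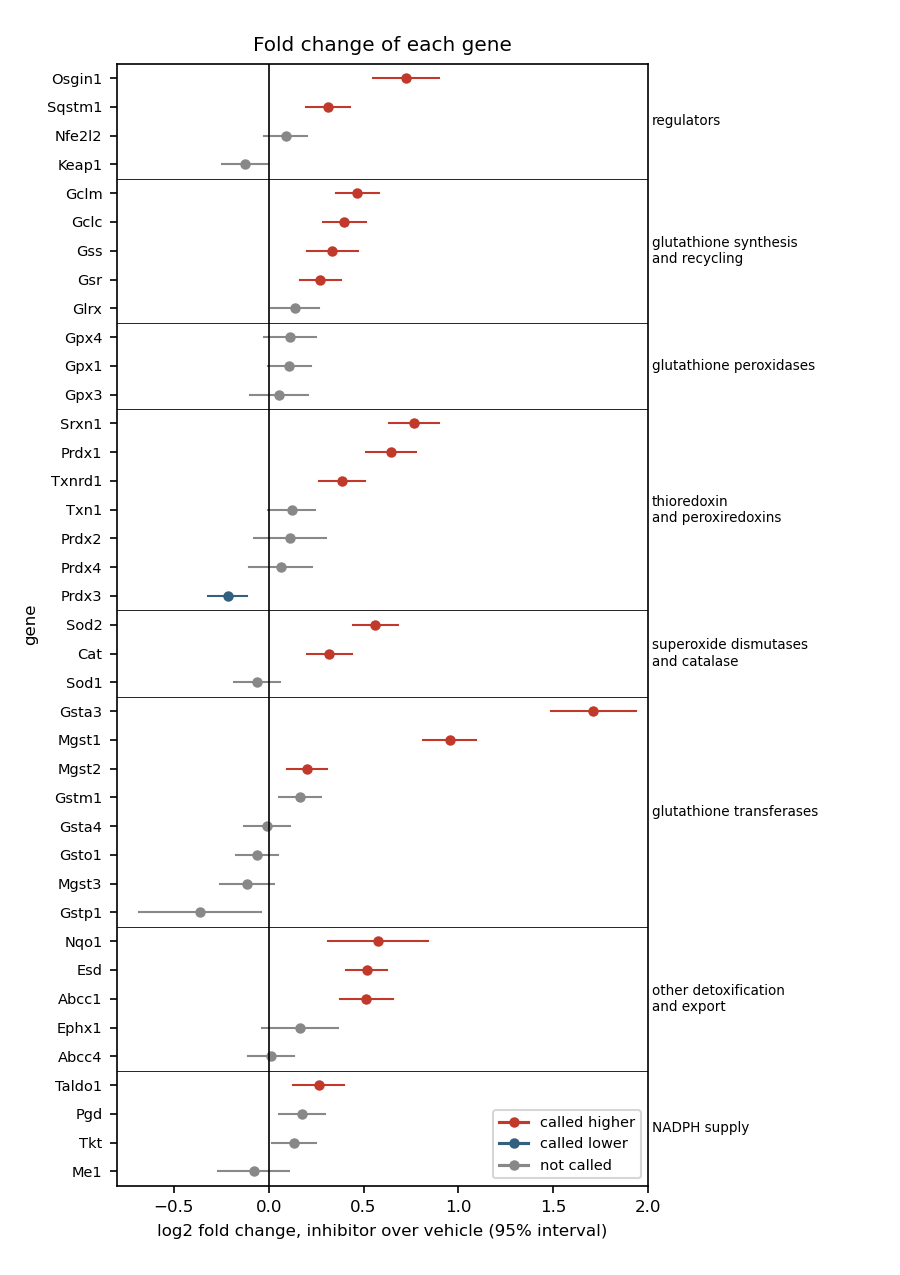
Log2 fold change of inhibitor over vehicle (horizontal axis) with its 95% interval for each of the 39 genes, grouped by role. Red marks the 18 genes called higher, blue the 1 called lower and grey the 20 not called. The intervals of the genes called higher lie right of 0, from Mgst2 at 0.20 to Gsta3 at 1.71.

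In the thioredoxin system Srxn1, Prdx1 and Txnrd1 rose, Prdx3 fell, and thioredoxin itself did not pass. Of 7 genes tested, 3 were higher and 1 was lower. Srxn1, sulfiredoxin, which repairs over-oxidised peroxiredoxins, had intensities of 771, 832 and 785 with the inhibitor, against 449, 477 and 478 with vehicle. The lowest inhibitor array was far above the highest vehicle array, and Srxn1 rose 1.70-fold (log2 fold change 0.77 ± 0.06, SE) with adjusted p = 0.000399. Prdx1, a cytosolic peroxiredoxin that removes hydrogen peroxide, had intensities of 2527, 2551 and 2652 with the inhibitor, against 1675, 1561 and 1705 with vehicle. Groups did not overlap, and Prdx1 rose 1.57-fold (log2 fold change 0.65 ± 0.06, SE) with adjusted p = 0.000791. Its other probe set, annotated to the same transcripts, gave 0.60 in the fit of single probe sets (adjusted p = 0.0165). Txnrd1, the cytosolic thioredoxin reductase, which draws on NADPH, had intensities of 999, 1035 and 1080.3 with the inhibitor, against 778, 805 and 796 with vehicle. It rose 1.31-fold (log2 fold change 0.39 ± 0.05, SE) with adjusted p = 0.00488, with no overlap between groups. Txn1, thioredoxin, had intensities of 5079 to 5562 with the inhibitor and 4866 to 4959 with vehicle, and its log2 fold change of 0.12 did not pass (adjusted p = 0.201). Prdx2, a cytosolic peroxiredoxin, and Prdx4, which resides in the endoplasmic reticulum, overlapped between groups, with log2 fold changes of 0.11 and 0.06. The other probe set of Prdx2 did not overlap, at 920 to 1031 with the inhibitor and 876 to 904 with vehicle. It gave 0.12 in the fit of single probe sets and was not called (adjusted p = 0.336).

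Prdx3, the mitochondrial peroxiredoxin, was the gene called lower. Its probe set had intensities of 1329, 1341 and 1324 with the inhibitor, against 1560.5, 1529.6 and 1550.5 with vehicle. Every inhibitor array was below every vehicle array with little spread in either group. The log2 fold change was -0.22 ± 0.04 (SE), a change to 0.86 of the vehicle level (adjusted p = 0.0216). This small change was not called without vehicle arrays 1, 2 or 3 or inhibitor array 1 (adjusted p = 0.0729, 0.0745, 0.0868 and 0.0826), nor with median centring (0.0749).

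**Figure D4:**
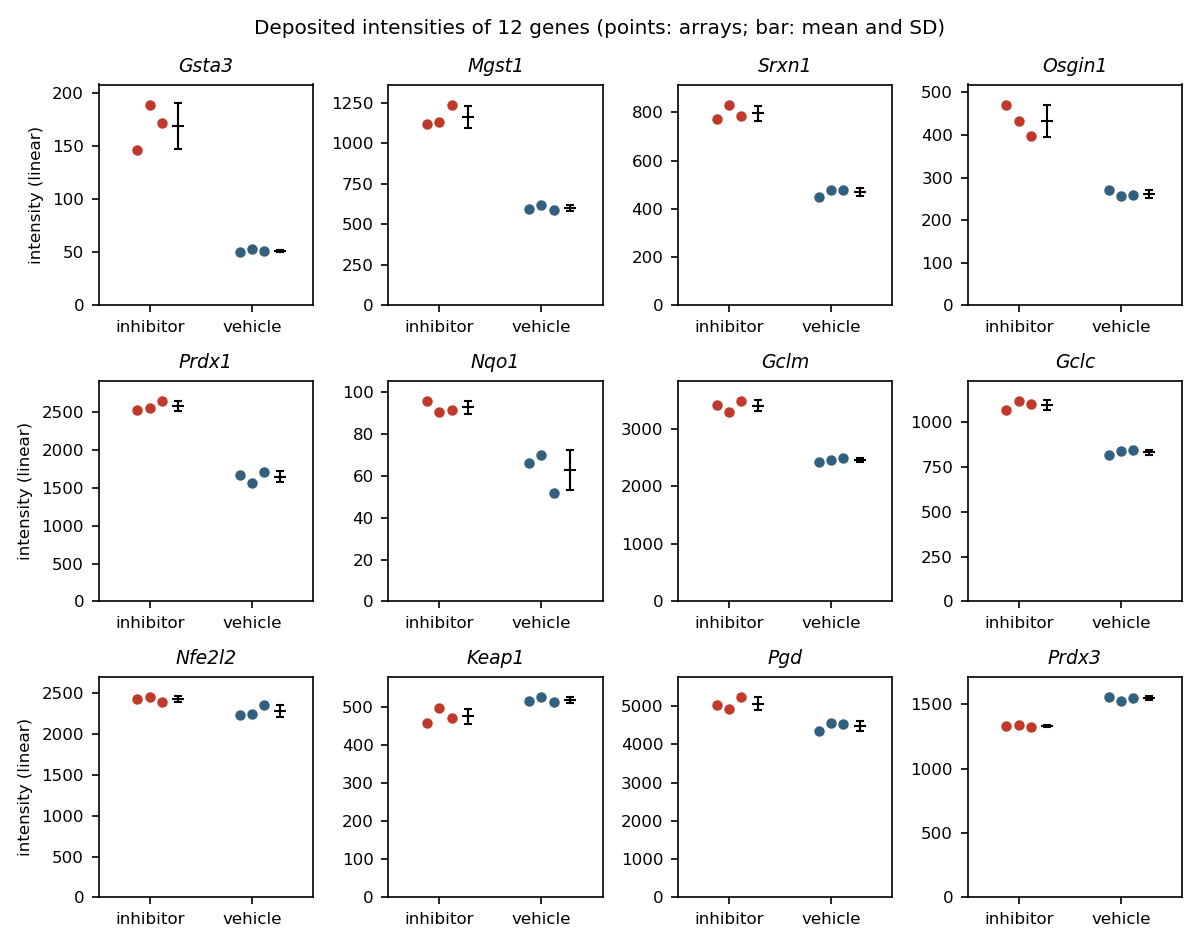
Deposited intensities (linear, vertical axis from 0) of 12 of the genes on each array, inhibitor left and vehicle right, with the mean and SD of the 3 arrays beside the points. In these 12 the groups do not overlap; Gsta3 shows the widest gap in proportion, 146 to 189 against 50.3 to 52.6, and Prdx3 and Keap1 lie lower with the inhibitor.

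Mitochondrial superoxide dismutase and catalase rose, and cytosolic superoxide dismutase did not pass. Sod2, the mitochondrial manganese enzyme and also a known NF-kB target, had intensities of 3312, 3391 and 3414 with the inhibitor, against 2199.8, 2296 and 2354 with vehicle. It was higher on all inhibitor arrays and rose 1.48-fold (log2 fold change 0.56 ± 0.05, SE) with adjusted p = 0.000920. Cat, the peroxisomal enzyme that breaks down hydrogen peroxide, had intensities of 4293, 4346 and 4210.0 with the inhibitor, against 3396, 3342 and 3573 with vehicle. It rose 1.25-fold (log2 fold change 0.32 ± 0.05, SE) with adjusted p = 0.00899, and lost the call with median centring (adjusted p = 0.0543). Sod1, the cytosolic copper and zinc enzyme, had 2274 to 2363 with the inhibitor and 2358 to 2521 with vehicle, which overlap, and a log2 fold change of -0.06 (adjusted p = 0.513).

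Glutathione transferases, which attach glutathione to reactive compounds, were divided: 3 of 8 rose, and 5 did not pass. Gsta3, an alpha-class transferase, had intensities of 146, 189 and 171 with the inhibitor, against 50.3, 52.6 and 50.9 with vehicle. The vehicle values were dim and nearly equal, and all inhibitor values were far above them. Gsta3 rose 3.27-fold (log2 fold change 1.71 ± 0.09, SE) with adjusted p = 0.000144, and the log2 fold change was 1.39 with a floor of 64. No detection calls are given, so its vehicle level is not shown to lie above background, and the size of the fold is uncertain. Mgst1, a microsomal transferase that is also a peroxidase, had intensities of 1120.0, 1132 and 1239.9 with the inhibitor, against 596, 619 and 586 with vehicle. It rose 1.94-fold (log2 fold change 0.95 ± 0.06, SE) with adjusted p = 0.000219, with no overlap. Mgst2, a related microsomal enzyme that can also make leukotriene C4, had intensities of 1081, 1090.3 and 1086 with the inhibitor, against 956, 929 and 943 with vehicle. Here the inhibitor values were nearly equal and above all vehicle values, and Mgst2 rose 1.15-fold (log2 fold change 0.20 ± 0.04, SE) with adjusted p = 0.0274. That call was lost without vehicle arrays 1, 2 or 3 or inhibitor arrays 1 or 3 (adjusted p = 0.0698, 0.106, 0.100, 0.0923 and 0.0568) and with median centring (0.238). Gstm1, a mu-class enzyme, did not overlap between groups, with 3579 to 3701 with the inhibitor and 3197 to 3317 with vehicle, but its log2 fold change of 0.16 did not pass (adjusted p = 0.0620). Gsta4 at -0.01, Gsto1 at -0.06 and Mgst3 at -0.11 on the log2 scale did not pass either. Of these, Gsta4 and Mgst3 were dim, at 96.8 to 103.8 and 82.8 to 97.2 over all arrays, and are not shown to lie above background. Gstp1, the pi-class enzyme, had intensities of 221, 281 and 195 with the inhibitor, against 281, 282 and 324 with vehicle. Inhibitor array 2 was close to the lowest vehicle value while arrays 1 and 3 were well below, and the log2 fold change of -0.36 (95% interval -0.68 to -0.04) did not pass (adjusted p = 0.139). Without inhibitor array 2 it was -0.51 with adjusted p = 0.0225, and 2 further probe sets, annotated to Gstp1 and Gstp2 together, gave -0.33 and -0.32 and were not called. Members of these transferase families resemble each other in sequence, so single values may hold signal from relatives and are uncertain.

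Other detoxification and export genes rose in 3 of 5. Nqo1, the quinone reductase often used as the reporter of NRF2 activity, had intensities of 96.0, 90.6 and 91.5 with the inhibitor, against 66.3, 69.9 and 52.0 with vehicle. It was dim on all arrays, with its vehicle level likewise not shown to lie above background, and vehicle array 3 was the lowest. Nqo1 rose 1.49-fold (log2 fold change 0.57 ± 0.11, SE) with adjusted p = 0.0184, but was not called without inhibitor array 1 or 3 (adjusted p = 0.0717 and 0.0644), with log2 fold changes of 0.55 and 0.58 there. Esd, an esterase that hydrolyses S-formylglutathione, had intensities of 3045, 3082 and 3181 with the inhibitor, against 2159, 2175 and 2173 with vehicle. The vehicle values were nearly equal, and Esd rose 1.43-fold (log2 fold change 0.52 ± 0.05, SE) with adjusted p = 0.000941. Its other probe set gave 0.72 (adjusted p = 0.00292, probe sets tested singly). Abcc1, the MRP1 pump that exports glutathione conjugates, had intensities of 1621, 1604 and 1774 with the inhibitor, against 1155, 1207 and 1134 with vehicle. It rose 1.43-fold (log2 fold change 0.51 ± 0.06, SE) with adjusted p = 0.00292. Abcc4, a related pump, had overlapping groups, and its log2 fold change was 0.01, with an interval at 95% of -0.11 to 0.13. Ephx1, the microsomal epoxide hydrolase, had intensities of only 35.6 to 43.2 with the inhibitor and 32.7 to 36.5 with vehicle and did not pass (adjusted p = 0.280).

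Of 4 enzymes of NADPH supply tested, 1 was called higher, the lowest share among the groups with a call. Taldo1, transaldolase of the pentose phosphate pathway, had intensities of 1659, 1715 and 1848 with the inhibitor, against 1445, 1479 and 1423 with vehicle. It rose 1.20-fold (log2 fold change 0.26 ± 0.06, SE) with adjusted p = 0.0271. The call did not hold without vehicle arrays 1, 2 or 3 or inhibitor arrays 1 or 3 (adjusted p = 0.0805, 0.0802, 0.103, 0.0539 and 0.0550), nor with median centring (0.110). Pgd, phosphogluconate dehydrogenase, which yields NADPH, had intensities of 5017, 4913 and 5243 with the inhibitor, against 4335, 4559.6 and 4536 with vehicle. The groups did not overlap, but the log2 fold change of 0.18 did not pass (adjusted p = 0.0700). Tkt, transketolase, likewise stood apart between groups with a log2 fold change of 0.13 that did not pass (adjusted p = 0.131). Me1, the cytosolic malic enzyme, was dim, at 61.0 to 66.5 with the inhibitor and 62.5 to 74.9 with vehicle. Its log2 fold change was -0.08 (adjusted p = 0.591), and both its probe sets were uncalled.

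A list of 80 other genes of the same pathways, of which 75 were tested, gave 21 called higher (28%) and 4 lower, with a median log2 fold change of 0.10. Of all genes tested, 7.1% were called higher and 6.75% lower, so the 4 lower calls (5.33%) are no more than that share. The count called higher was 13 without vehicle array 2, vehicle array 3 or inhibitor array 1. The group of heme, iron and cystine genes had the highest share, with 5 of 6 higher. Hmox1, heme oxygenase, averaged 3377 ± 119 with the inhibitor and 919 ± 49.5 with vehicle (SD, n = 3 each) and rose 3.68-fold (log2 fold change 1.88 ± 0.06, SE). Slc7a11, the cystine importer that feeds glutathione synthesis, averaged 2821 ± 109.6 with the inhibitor and 1433 ± 10.5 with vehicle (SD, n = 3 each) and rose 1.97-fold (log2 fold change 0.98 ± 0.05, SE). Blvrb, a biliverdin reductase, rose by 1.12 and the ferritin heavy chain gene Fth1 by 0.36 on the log2 scale. Of 26 transferase and detoxification genes tested, 7 were higher and none lower. Among them, Pir rose 2.35-fold (log2 fold change 1.24 ± 0.07, SE), and on the log2 scale the pump gene Abcc5 rose by 0.85, the theta-class transferase genes Gstt3 and Gstt1 by 0.64 and 0.55, and Ptgr1, which reduces reactive alkenals, by 0.52. In the thioredoxin group 2 of 12 were higher and 1 was lower. Txnip, which encodes a protein that binds and inhibits thioredoxin, averaged 938 ± 23.9 with the inhibitor and 550.4 ± 19.7 with vehicle (SD, n = 3 each) and rose 1.70-fold (log2 fold change 0.77 ± 0.05, SE), while Txndc5, a disulfide isomerase of the endoplasmic reticulum, fell by 0.44 on the log2 scale. NADPH genes were mixed, with 4 of 12 higher, including the NAD kinase gene Nadk (0.40), and 3 lower. Those 3, Idh2, Pgls and Me2, are named after their values were seen, and each lost its call when some single arrays were left out. Besides Nadk, the NADPH genes called higher were G6pd2, Idh1 and H6pd (adjusted p = 0.00797, 0.0129 and 0.0155 by limma). They too are named after their values were seen, and their calls without single arrays are not given here. Of 9 partners and inhibitors of NRF2, 2 were higher, and of 10 further glutathione genes 1, a share near that over all genes. Adjusted p lay between 2.6e-05 for Hmox1 and 0.00538 for Fth1 over the 12 genes of the list with the smallest p, those given a fold change in this paragraph.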

How the data were processed

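Biotin-labelled total RNA of 6 samples was read on Affymetrix whole-transcript arrays, per the labels. The deposited values are linear intensity, which the authors produced in Affymetrix Expression Console according to the submitters' processing notes. How probes were summarized, corrected for background and scaled is not given in the sources used here. Precision is limited by the number of arrays. Values below 16 (5.94%) were set to 16 and log2 was taken, which understates fold changes of dim genes. No detection calls are given. Of 35512 probe sets, 21789 had 1 gene symbol, updated through Entrez numbers, and 1621 with several and 12102 unnamed ones were left out. The brightest probe set stood for a gene, and 19847 genes were tested after 91 that never exceeded the floor were dropped. The fit used limma 3.58.1 (lmFit and eBayes, R 4.3.3) on the 2 groups without covariates, and its 2-sided p-values were adjusted by Benjamini-Hochberg across every gene tested, with calls at 0.05. It was tested on simulated data. The genes, lists and floor were chosen with earlier results of these data known. Every member is accounted for, and genes of the other list were named if called, at most 12 by smallest p. Beyond these, further genes were named after their values were seen. They were the remaining genes of that list called lower, the remaining NADPH genes called higher and some mitochondrial ones, called or not. The alternatives were 17: scaling, filters, floors, probe set means, priors, array weights, a replicate block and leaving out each array.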

Additional observations from a re-analysis of the deposited data

How the results depend on the processing

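The count of listed genes called higher, 18 over all arrays, was 14 with median centring, 24 with an intensity trend and robust prior, and between 15 and 18 when 1 array was left out. No listed gene that was called changed sign in any of the alternatives that tested it, 17 for each except Gsta3, with 16, and Nqo1, with 15, which the intensity filters left out. The 1 listed gene called lower became 0 with median centring, 2 with the trend and robust prior, 3 with array weights and 0 with the replicate block, and 0 to 2 without 1 array. Over all genes, 2749 calls became 4199 with the trend and robust prior, 4334 with array weights and 1679 with the replicate block, and 1183 to 2810 without 1 array. Leaving out vehicle arrays 1, 2 and 3 in turn gave 1567, 1183 and 1219, and inhibitor array 1 gave 1273. Of the 75 other pathway genes, 21 called higher became 14 with median centring and 13 to 19 without 1 array, and 4 called lower became 2 with median centring, 1 with the replicate block and 1 to 4 without 1 array. The cause of these differences was not tested. The block fit uses replicate numbers that the arrays share by title, and same-numbered arrays did not deviate together throughout (correlations of deviations 0.24, 0.13 and -0.09), so the numbers are not read as pairs. With the block 16 listed genes were called higher, without Mgst2 and Taldo1. Among listed genes not called over all arrays, 8 were called in at least 1 alternative, such as Gstm1 with the trend and robust prior (adjusted p = 0.00055). The share of rises among all calls was 59.4% with the block and 51.3% without it. Groups of 3 arrays were not tested for outlying samples.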

Other observations

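Several enzymes of these pathways work in mitochondria, and they were picked out here after their values were seen, so no test of them as a group is given. Beside the rise of Sod2 and the lower call of Prdx3, the genes Idh2 and Me2, grouped here under NADPH, were called lower. Their log2 fold changes were -0.26 and -0.23 (adjusted p = 0.0178 and 0.0371 by limma). The genes of mitochondrial thioredoxin and its reductase, Txn2 and Txnrd2, had log2 fold changes of -0.01 and 0.02 and did not pass, and neither did Glrx2 (0.08), Glrx5 (0.03) or Nnt (-0.08). Idh2 averaged 1499 ± 16.9 with the inhibitor and 1791 ± 61.5 with vehicle (SD, n = 3 each). Me3, the gene of the other mitochondrial malic enzyme, did not pass, with a log2 fold change of 0.28 (adjusted p = 0.225). Of the genes of the other pathway list called lower, Pgls, of the pentose phosphate pathway, had a log2 fold change of -0.23 (adjusted p = 0.0314), and Txndc5 is given above. Idh2 was not called without vehicle arrays 2 or 3 or inhibitor array 1 (adjusted p = 0.0739, 0.0666 and 0.0742), Me2 was called in no fit that left out 1 array (adjusted p between 0.0542 and 0.122), and Pgls was called there in 1 of 6.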
